A study of Mus musculus with 8 samples.

Results

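Liver X receptors (LXRs) are nuclear receptors that bind oxysterols, oxidised forms of cholesterol, and pair with retinoid X receptors on DNA to switch on genes that move cholesterol and other lipids out of cells. In liver their targets send sterol into bile and into lipoproteins, and in macrophages they load sterol onto HDL. The 9 targets followed here were Abca1 and Abcg1, which export cholesterol from cells, Abcg5 and Abcg8, which secrete sterols into bile, Lpl, Pltp and Apoe, which act on lipoproteins in the blood, Lpcat3, which remodels membrane phospholipids, and Gramd1b, which carries cholesterol from the plasma membrane to the endoplasmic reticulum. They were chosen by gene symbol, with no cut on their values but with earlier results of these data known. The arrays list Lpcat3 under its older symbol Mboat5. They had 14 of the 41174 non-control probes on the array, all 14 were detected, and no spot of them was saturated. After naming, 16557 genes had a detected probe. Where a gene had several probes, the brightest by its mean over all arrays stood for it.

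Liver RNA came from male wild-type C57BL/6 mice (C57BL/6J in the study's methods) that were 14 to 17 weeks old when the experiment began and received their diet for 4 weeks. The 4 mice of the STD group ate standard chow, and the 4 mice of the ATH group ate an atherogenic diet, which the sample labels call high in fat and cholesterol and which, by the study's methods, also held cholic acid. Each mouse had 1 Agilent array, so n = 4 mice per diet throughout. All values below are log2 signals relative to the 75th percentile of the same array, called scaled log2 signal. Diets were compared with limma over all detected probes, and a gene was called at a Benjamini-Hochberg adjusted p under 5%, or under 1% where stated.

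The 4 STD arrays lay on 1 slide and the 4 ATH arrays on another. An effect of the slide and that of the diet therefore cannot be told apart. Between 72.3% and 77.8% of spots were well above background on each array. The tissue carried its markers: all 14 hepatocyte genes on the list were detected. Their median log2 fold change was -0.42 (0.03 without scaling), with 3 called lower by limma (Tat, Ass1 and Tdo2). At an unadjusted p under 0.05, 9 were lower, and the methods' test, which allows unequal variances, called 0. With quantile normalization, median scaling, spike-in scaling or no scaling, 1 was called lower, and without scaling 1 was called higher. ATH mice 3 and 4 stood apart in macrophage markers, as given below. The median of all genes was -0.14 with this scaling and 0.31 without any, and single values are to be read against that shift. In whole liver, fewer cells of a type and less RNA per cell cannot be told apart.

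Regulatory sequence of the members was taken from RefSeq (GRCm38.p6) as windows from 250 bases before to 50 bases after a transcription start. There were 9 such windows for 6 of the 9 genes: Abca1, Abcg5, Abcg8, Apoe, Lpcat3 and Pltp. Abcg5 and Abcg8 are read away from each other, with starts 110 bases apart on chromosome 17. Another Abcg8 start in the table lies on the far side of the Abcg5 start and was not used here. The 109 bases between the starts, chr17:84683012-84683120 on the + strand, are shown because the paired behaviour of these genes is described below. Capitals mark TTTATA, the reverse complement of TATAAA, the only match of the searched motifs between the starts.
Abcg5 and Abcg8: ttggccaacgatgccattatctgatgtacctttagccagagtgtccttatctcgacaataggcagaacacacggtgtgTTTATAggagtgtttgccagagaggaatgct

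The 250 bases before the Abca1 start, chr4:53159896-53160145 on the - strand, are shown because this window alone among the 9 held a match to the element that LXR is known to bind, a direct repeat with a 4-base spacer. The motif searched was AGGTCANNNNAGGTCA on both strands, with up to 3 mismatches outside the spacer. The Abca1 match, TGACCGGTAGTAACCC, holds the motif on the opposite strand with 3 mismatches. Of 32851 windows of this length, 21.9% held a match as loose as this. Capitals mark, from left to right, the E-box CACGTG (in 7.15% of windows), the repeat, and TATAAA (in 13.6%), and none of these overlapped.
Abca1: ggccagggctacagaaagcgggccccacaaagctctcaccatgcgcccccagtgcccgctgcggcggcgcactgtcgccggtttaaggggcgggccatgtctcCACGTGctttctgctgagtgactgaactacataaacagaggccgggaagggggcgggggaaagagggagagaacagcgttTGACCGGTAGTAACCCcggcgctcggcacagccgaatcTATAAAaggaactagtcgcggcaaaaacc

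Of the 9 members, 6 were higher on the ATH diet at 5%: Gramd1b, Lpl, Abcg1, Abcg8, Abcg5 and Abca1. By comparison, 4.05% of all 16557 genes were called higher. At 1% the higher members were Gramd1b, Lpl, Abcg1 and Abcg8, 4 of 9, against 0.26% of all genes. No member was called lower by limma, where 5.3% of all genes were. At an unadjusted limma p under 0.05, 1 member (Apoe) was lower. The methods' test at 5% called 1 member higher (Gramd1b, adjusted p = 0.0496) and 0 lower, among 22 probes called in all. By that test Lpl, Abca1, Abcg1, Abcg8 and Abcg5 had adjusted p from 0.0549 to 0.103. By probe, 10 of the 14 were called higher, against 3.06% of all detected probes. The median log2 fold change of the 9 genes was 2.09. For 7 members every ATH mouse was above every STD mouse, a pattern seen in 7.6% of all genes, and for Apoe every ATH mouse was below, as in 14.6%.

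**Figure D1:**
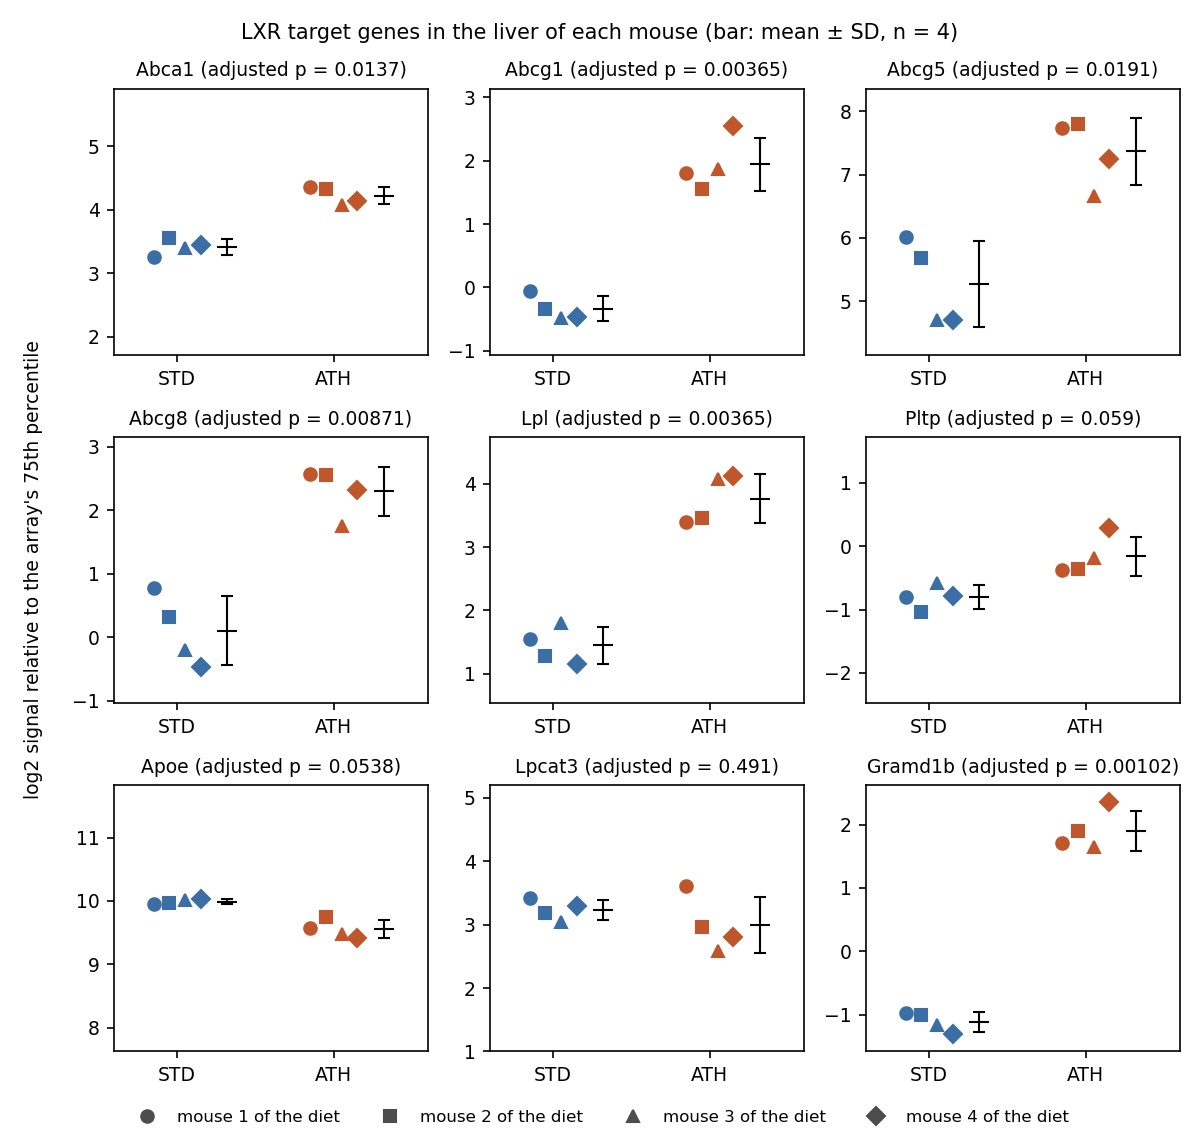
Scaled log2 signal of the 9 members in each mouse, with the diet on the x axis, 1 symbol per mouse and a bar for the mean ± SD (n = 4). Each panel spans the same number of log2 units; the diets do not overlap for any gene but Lpcat3.

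Gramd1b encodes Aster-B, a sterol carrier at contacts between plasma membrane and endoplasmic reticulum. Its brightest probe, A_51_P221008, read -0.97, -1.0, -1.16 and -1.31 in STD mice 1 to 4. In ATH mice 1 to 4 it read 1.71, 1.89, 1.65 and 2.35. The lowest ATH mouse was 2.62 log2 units above the highest STD mouse. The log2 fold change was 3.01 ± 0.18 (SE), an 8.04-fold rise (95% interval 6.10 to 10.6, limma adjusted p = 0.00102). This placed Gramd1b 31st by fold change among all genes, above every other member.

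Gramd1b had 3 further probes, and their sequences are shown where they bear on the agreement between probes. A_52_P325116 shares 48 bases with the brightest probe and gave a log2 fold change of 2.94, so these are close to repeats of a single measurement. A_51_P161737, 4694 bases away on the mm7 assembly, gave 2.55 (adjusted p = 0.00158). A_52_P5696, a further 19544 bases upstream, gave 1.01 ± 0.37 (adjusted p = 0.118) and was not called. It was dim, at -4.27, -2.81, -3.94 and -4.27 on STD and -3.20, -3.03, -2.99 and -2.01 on ATH, and its diets overlapped through STD mouse 2. Both sequences follow in lower case, with positions on mm7, - strand: chr9:40227888-40227947 and chr9:40247432-40247491.
A_51_P161737: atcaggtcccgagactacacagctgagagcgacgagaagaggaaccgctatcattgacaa
A_52_P5696: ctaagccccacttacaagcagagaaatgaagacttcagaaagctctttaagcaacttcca

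Abcg1 and Abca1 encode transporters that move cholesterol from cells to HDL and to lipid-poor apolipoprotein A-I. Abcg1 read -0.05, -0.34, -0.48 and -0.47 on STD and 1.80, 1.56, 1.87 and 2.54 on ATH. All ATH mice were at least 1.6 log2 units above the highest STD mouse, and ATH mouse 4 was the highest. It rose 4.84-fold (95% interval 3.45 to 6.80, limma adjusted p = 0.00365). Abca1 read 3.25, 3.56, 3.39 and 3.44 on STD and 4.36, 4.32, 4.08 and 4.14 on ATH, again without overlap. It rose 1.76-fold (95% interval 1.44 to 2.14, adjusted p = 0.0137).

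The rise of Abca1 was smaller than that of Abcg1 in every ATH mouse. The difference Abca1 minus Abcg1 within an array, which needs no scaling constant, was 3.74 ± 0.30 (SD, n = 4) on STD and 2.28 ± 0.51 on ATH. The 4 ATH values lay between 1.6 and 2.76, below the lowest STD value of 3.29. The change was -1.46 log2 units (95% interval -2.19 to -0.74, two-sided exact permutation p = 0.0286, the smallest that 70 assignments allow). Adjusted over the 2 transporter pairs compared, the exact permutation test gave p = 0.0571 and missed the threshold, which a single separated pair could not reach with this number of mice.

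Abcg5 and Abcg8 encode the partners of a heterodimer in the canalicular membrane that pumps cholesterol and plant sterols into bile. Abcg5 read 6.01, 5.69, 4.70 and 4.70 on STD and 7.74, 7.80, 6.67 and 7.25 on ATH. It rose 4.26-fold (95% interval 2.40 to 7.56, limma adjusted p = 0.0191). Abcg8, by its brightest probe A_52_P179925, read 0.77, 0.31, -0.20 and -0.47 on STD and 2.58, 2.56, 1.75 and 2.32 on ATH. It rose 4.60-fold (95% interval 2.90 to 7.29, adjusted p = 0.00871), and the second Abcg8 probe, A_51_P298480, gave a log2 fold change of 1.88 (adjusted p = 0.0167). Neither gene's diets overlapped. Abcg5 lost its call when STD mouse 3 (adjusted p = 0.0561), STD mouse 4 (0.0531) or ATH mouse 4 (0.0508) was left out.

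For both genes STD mice 1 and 2 were above STD mice 3 and 4, and among ATH mice, mouse 3 was lowest and mouse 4 next. Abcg5 minus Abcg8 within an array was 5.17 ± 0.20 (SD, n = 4) on STD and 5.06 ± 0.16 on ATH. The change was -0.11 log2 units (95% interval -0.43 to 0.21, two-sided exact permutation p = 0.486), so the interval allows a difference between the 2 responses of up to 0.43. Its sign turned under normexp correction (0.06), quantile normalization (0.13) and the median over probes (0.05).

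**Figure D2:**
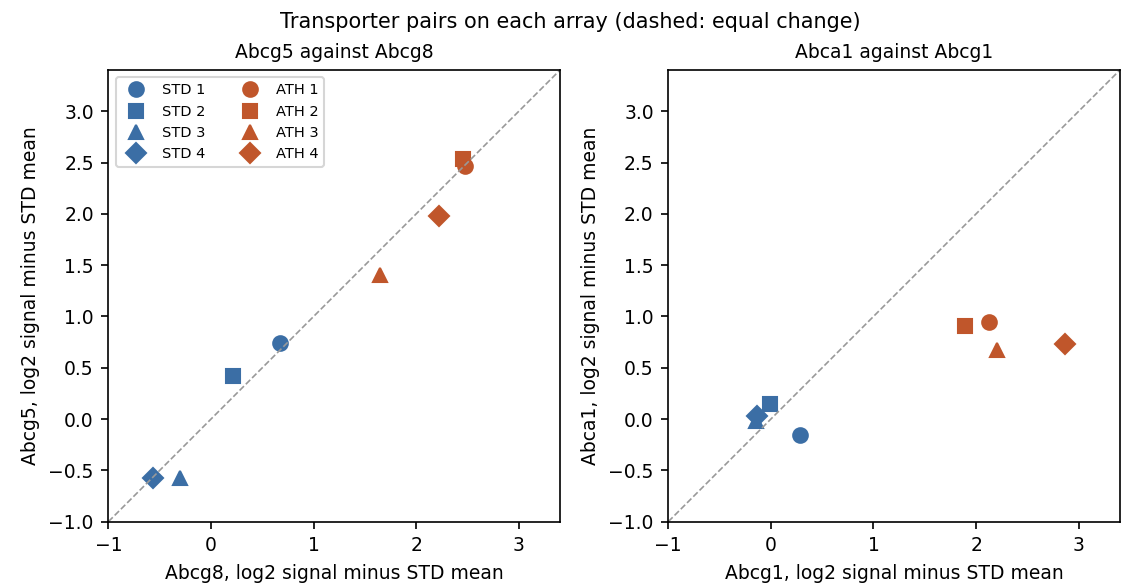
Scaled log2 signal of each transporter minus its own STD mean, with Abcg5 against Abcg8 on the left and Abca1 against Abcg1 on the right, 1 point per mouse; the dashed line marks equal change. Abcg5 and Abcg8 lie along the line in both diets, whereas the 4 ATH points of the right panel lie below it.

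Lpl encodes lipoprotein lipase, which splits triglyceride in circulating lipoproteins and is made mainly by fat, muscle and macrophages, with little in adult hepatocytes. It read 1.55, 1.29, 1.81 and 1.15 on STD and 3.4, 3.46, 4.07 and 4.12 on ATH. ATH mice 3 and 4 were above ATH mice 1 and 2, and all 4 were at least 1.6 above the highest STD mouse. It rose 4.97-fold (95% interval 3.51 to 7.03, limma adjusted p = 0.00365), and the second probe, A_52_P257812, gave 5.37-fold (adjusted p = 0.00302). Of the adipocyte markers 0 of 5 detected were called by limma (1 higher and 2 lower at an unadjusted p under 0.05, 0 by the methods' test), and the adipocyte hormone Lep was above background on no array. Fabp4, at 0.58 (adjusted p = 0.0838), was called higher with quantile normalization, spike-in scaling and no scaling. Of 5 skeletal muscle markers 2 were detected, neither was called, and Myl1 and Mb were above background on no array.

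Pltp, the phospholipid transfer protein that enlarges HDL, read -0.81, -1.04, -0.58 and -0.79 on STD and -0.38, -0.36, -0.18 and 0.28 on ATH. The diets did not overlap, by a gap of 0.20, but the 1.57-fold difference missed the threshold (95% interval 1.18 to 2.07, limma adjusted p = 0.0590). It passed with spike-in scaling (0.0328) and without scaling (0.0154), among others. Its 1 probe of 60 bases is placed across chr2:164581164-164585120 (mm7, - strand).

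Apoe, the apolipoprotein that carries remnants to hepatic receptors, was read by 10 spots per array. It stood at 9.95, 9.96, 10.02 and 10.03 on STD and 9.57, 9.74, 9.48 and 9.42 on ATH. The log2 difference was -0.44 ± 0.12 (SE, limma adjusted p = 0.0538), and it was not called. It passed with normexp background correction, at -0.42 (adjusted p = 0.021). The direction depended on scaling: the difference was 0.05 with quantile normalization and 0.01 without scaling. Lpcat3, which puts polyunsaturated chains into phosphatidylcholine, read 3.42, 3.18, 3.04 and 3.29 on STD and 3.61, 2.97, 2.59 and 2.80 on ATH. Its diets overlapped, and the log2 difference of -0.24 ± 0.22 (adjusted p = 0.491) turned to 0.07 with spike-in scaling and 0.21 without scaling.

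**Figure D3:**
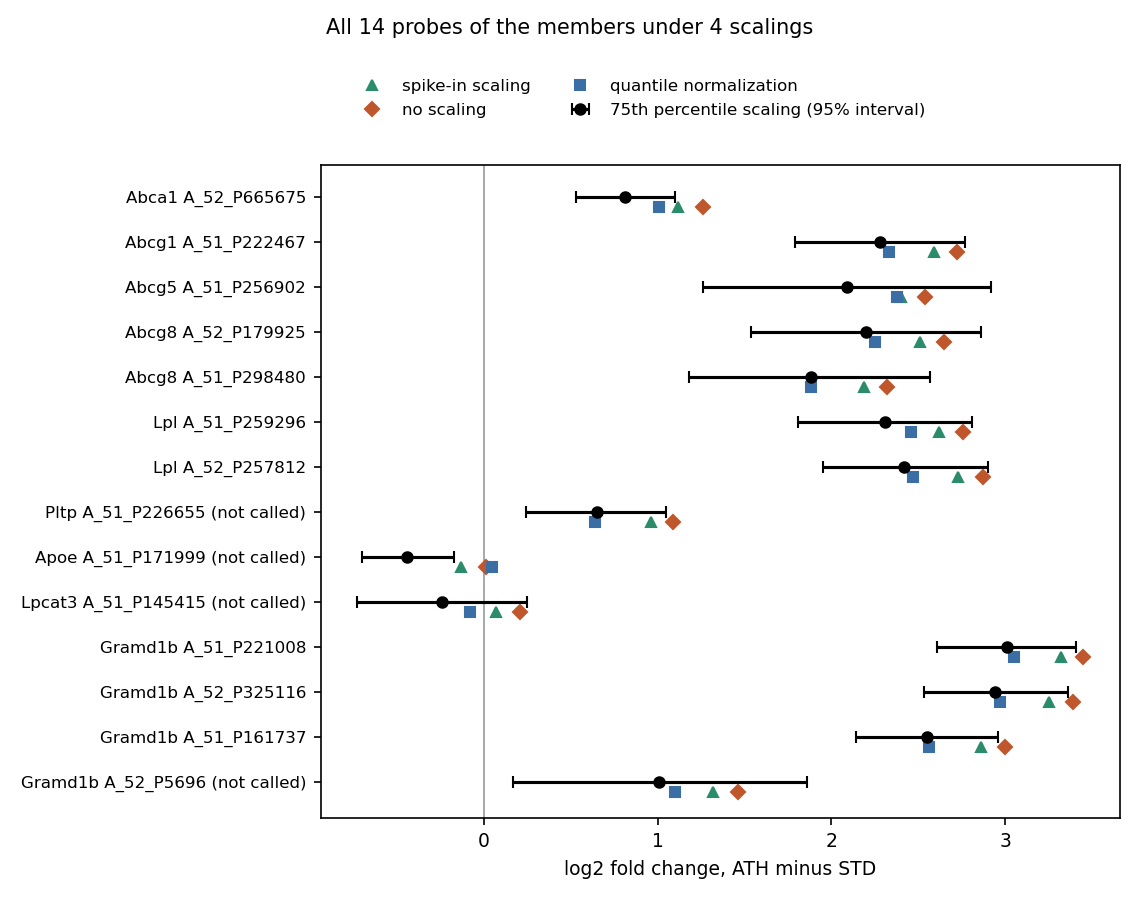
Log2 fold change, ATH minus STD, of all 14 member probes, with black points and 95% intervals for the 75th percentile scaling and coloured symbols for 3 other scalings. The 10 called probes lie right of 0 under each scaling shown, while Apoe and Lpcat3 cross 0.

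Macrophages are a main site of LXR-driven cholesterol export, so their markers are given beside the members. Of 18 macrophage markers 8 were called higher and 0 lower by limma (15 higher and 1 lower at an unadjusted p under 0.05, 0 by the methods' test), with a median log2 fold change of 1.5. Their summed linear signal, relative to the 75th percentile, ranged from 74.8 to 99.2 on STD and from 137 to 703 on ATH. The 4 with the largest rise among those called were Gpnmb, Itgax, Marco and Trem2. Gpnmb was well above background on the ATH arrays only and was at least 32.4-fold higher there, taken against the dimmest signal measured above background on each STD array (limma adjusted p = 0.00682). The other three rose by 3.91, 3.43 and 3.16 on the log2 scale. Of the markers of resident Kupffer cells that were not called, Timd4 was at 0.94 (adjusted p = 0.0528), Vsig4 at 0.65 (adjusted p = 0.0835) and Clec4f at 0.32 (adjusted p = 0.290), and the scavenger receptor Cd163 was at -1.33 (adjusted p = 0.109). The part of these cells in the members' rise was not tested.

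The median marker differed more between ATH mice than any member did, though not every single marker did. On ATH, Clec4f read from 3.89 to 4.76 and Vsig4 from 1.63 to 2.56, whereas Abcg5 read from 6.67 to 7.80. Relative to the STD mean, the median marker stood at 1.08, 0.47, 2.38 and 2.30 in ATH mice 1 to 4. Mouse 2, with the lowest median marker, had Gramd1b at 3.0, Abcg8 at 2.46, Abcg5 at 2.53, Lpl at 2.01, Abcg1 at 1.89 and Abca1 at 0.91. Its low median does not mean that every marker was low in mouse 2. There Trem2 read 1.14 (STD mean -1.69), Marco 3.93 (STD mean 2.71) and Itgax -2.18 (STD mean -3.58). Gpnmb read -2.91 in mouse 2 and was not well above background on STD. Csf1r, Clec4f, Cd163 and Itgam were below their STD means in mouse 2. Gramd1b, Lpl, Abcg1 and Pltp were highest in mouse 4, while Abcg5, Abcg8, Abca1, Lpcat3 and Gramd1b were lowest in mouse 3. Without ATH mice 3 and 4, a setting added after the data were seen, 5 of 9 members were called higher. The log2 fold changes were then 2.91 for Gramd1b, 1.98 for Lpl, 2.01 for Abcg1, 2.47 for Abcg8 and 0.93 for Abca1. Abcg5 was not called at 2.50 (limma adjusted p = 0.0593). The median marker of ATH mice 1 and 2 was also above the STD mean, so leaving out mice 3 and 4 does not remove the rise in markers. This setting therefore cannot separate the members from the macrophage markers, and the part of macrophages in the members' rise was not tested.

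**Figure D4:**
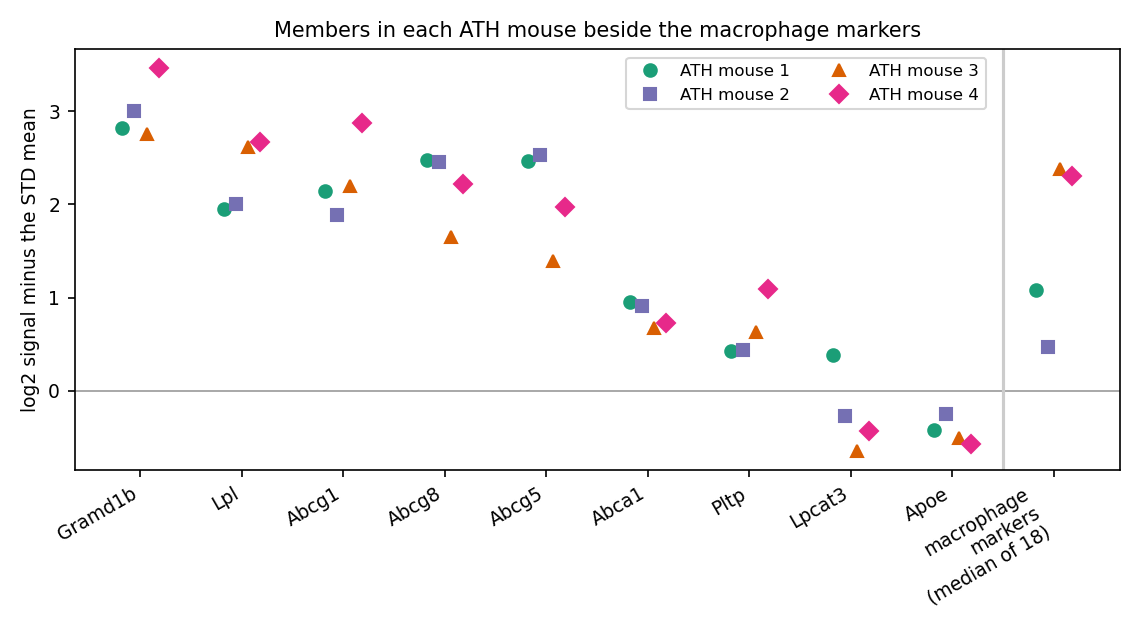
Scaled log2 signal of each ATH mouse minus the STD mean for the 9 members and, at the right, the median of 18 macrophage markers. Mice 3 and 4 have the highest markers, at 2.38 and 2.30, while Abcg5 and Abcg8 are lowest in mouse 3.

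Other cell types were checked by the same kind of list. Called higher by limma were 1 of 9 stellate cell markers (Col3a1), 2 of 8 endothelial markers (Lyve1 and Fcgr2b) and 1 of 6 cholangiocyte markers (Sox9). Of all genes, 4.05% were called higher. At an unadjusted limma p under 0.05, 4, 3 and 3 of these markers were higher and 0 lower, and the methods' test called 0. None of 8 lymphocyte or 4 detected neutrophil markers was called by limma or the methods' test, though 3 and 2 of them were higher at an unadjusted p under 0.05, and 1 lymphocyte marker was lower. Elane was above background on no array.

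The receptors that drive these targets did not pass the test. Nr1h3, which encodes LXR alpha, read 4.54, 4.54, 4.72 and 4.75 on STD and 4.44, 4.39, 4.5 and 4.53 on ATH, a log2 difference of -0.18 ± 0.11 (SE, limma adjusted p = 0.337). Nr1h2, which encodes LXR beta, differed by -0.05 ± 0.11 (adjusted p = 0.790). Of the 5 LXR and RXR genes 0 were called by limma or by the rerun of the methods' test, which called few probes in all. At an unadjusted limma p under 0.05, 1 was lower. Their median was -0.18, against -0.14 for all genes, and turned to 0.14 with spike-in scaling and 0.27 without scaling.

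Over the 6 other lists of the pathway, 7 of 43 detected genes were called higher and 0 lower by limma. Of all genes, 4.05% were called higher and 5.3% lower. In a limma fit that also blocked on replicate number, 3 of the 7 kept their calls: Scd1, Scd2 and Cd5l. The methods' test, as rerun here, called 0 genes in each of these lists and 22 probes in all. Among 8 lipogenic LXR targets the desaturases rose: Scd1 by 1.36 ± 0.15 (limma adjusted p = 0.00519) and Scd2 by 2.18 ± 0.23 (adjusted p = 0.00427) on the log2 scale. Scd1 makes monounsaturated fatty acids in hepatocytes and Scd2 is the related enzyme of other tissues. The other 6 were not called. Among them the fatty acid synthase gene Fasn was at -0.15 (limma adjusted p = 0.738) and Srebf1 at 1.02 ± 0.31 (adjusted p = 0.0771). Srebf1 was called with quantile normalization, spike-in scaling and no scaling (limma adjusted p from 0.0147 to 0.0332). Of all 8 genes, 4 were higher and 4 lower in direction. The median of the list was 0.10, near that of all genes.

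Of 9 other LXR targets 3 were called higher. Cd5l, a secreted macrophage protein, read from 4.79 to 5.19 on STD and from 6.06 to 7.21 on ATH (log2 fold change 1.69, limma adjusted p = 0.00904). Arl4c, a small GTPase linked to cholesterol movement, rose by 1.54 (adjusted p = 0.0391), with ATH mouse 2 nearest to the STD mice at 0.09. Mylip, the ubiquitin ligase that removes the LDL receptor, rose by 0.78 (adjusted p = 0.0443). The median of the list was 0.64. At an unadjusted limma p under 0.05, 5 of its genes were higher and 1 was lower (Apoc1).

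Genes that act beside the members mostly missed the test. Of 5 detected partners of lipoprotein lipase, among them its anchor Gpihbp1 and its inhibitor Angptl4, 0 were called by limma or the methods' test and 0 had an unadjusted p under 0.05, with a median of -0.30 (0.15 without scaling). Of 7 HDL and sterol acceptors 1 was called higher, the HDL receptor gene Scarb1 (0.69 ± 0.13, adjusted p = 0.0208). In direction 5 of the 7 were lower, with a median of -0.28 (0.16 without scaling). At an unadjusted limma p under 0.05, 2 were lower (Apoa2 and Cav1). Of 9 detected relatives of the members 1 was called, Lpcat2 (1.91 ± 0.48, adjusted p = 0.0461), an acyltransferase of inflammatory cells, and with quantile normalization it was not (adjusted p = 0.0542). Its ATH mice read -0.40, -1.1, 0.80 and 1.36, lowest in mouse 2, and its STD mice -1.68, -1.69, -2.05 and -1.55. Among all detected relatives, 2 were higher and 1 was lower (Lipc) at an unadjusted limma p under 0.05.

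**Figure D5:**
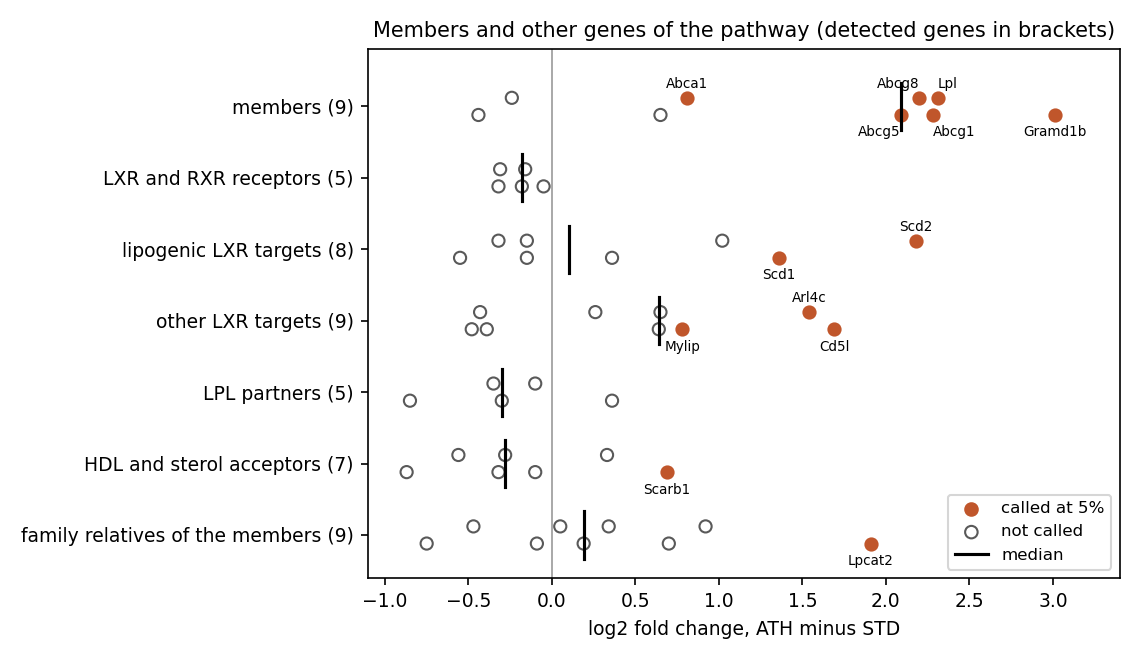
Log2 fold change, ATH minus STD, of the members and of the other pathway lists, with 1 circle per detected gene, filled where called at 5%, and a line at the list median. The members' median is 2.09, and the medians of the other lists lie between -0.30 and 0.64.

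The genes whose 8-array profile was most like each called member were found by the root mean square difference, after each gene's STD mean was subtracted, among 16557 genes. For Abcg5 the nearest gene was Abcg8 at 0.18 log2 units, and for Abcg8 it was Abcg5; next for both was Slc2a4, at 0.49 and 0.40. For Abcg1 the nearest were Scd2 (0.24) and Ear1 (0.27). For Lpl they were Pmaip1 (0.26) and Abcg1 (0.27), and for Gramd1b Pmaip1 (0.52) and Ifi27l2b (0.53). For Abca1 they were Polk and Usp18, both at 0.13.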

How the data were processed

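Agilent Feature Extraction 9.5, named in the submitters' processing notes, gave the deposited spot intensities, which were background-subtracted and detrended by the authors but not scaled between arrays. The authors also deposited log2 values made in GeneSpring. For 100% of detected probes these differ from the log2 of the processed intensity by an array offset and a probe offset alone (tolerance 0.001). Their scaling and centring are not stated in the sources used here. Control spots and spots with outlier flags were dropped, spots of a probe were averaged, and the array's 75th percentile was subtracted on the log2 scale. A probe was detected when it was well above background, and positive and significant, on at least 3 of 4 arrays of either diet (31056 probes). Genes were named by accession (22944 probes), symbol (6664) or synonym (3108) through RefSeq, and 8458 probes, known by the file's name alone, were not counted among genes. Probe positions refer to mm7, on which the array was designed.

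Diets were compared with limma 3.58.1 in R 4.3.3 (a two-sided test after lmFit and eBayes, adjusted by Benjamini-Hochberg over detected probes). The methods' test, an analysis with unequal variances at a false discovery rate of 1%, was an alternative, rerun here on the scaled values of the detected probes. The study lists probes changed at 1%, whereas the rerun called 0 probes at 1%. The cause of this difference was not tested. Pairs of transporters used exact permutation in Python 3.11.15 (numpy 2.4.6, scipy 1.17.1, pandas 2.3.3, and matplotlib 3.10.9 for plots). On simulated data for this comparison (31056 probes), limma at 5% recovered 40% of changes of 1 and 90% of changes of 2 log2 units. Of 134 calls 4 were false. The simulation drew normal values with the same SD in both diets. It does not give the share of false calls where spread differed, as for Itgax (SD 0.26 on STD and 1.92 on ATH). The members and gene lists were chosen with earlier results of these data known. Named are all members, the called genes of each list (at most 4), the receptors Nr1h3 and Nr1h2, and the 2 genes most like each called member. Others, such as Srebf1 and the markers Timd4, Vsig4, Clec4f, Cd163 and Fabp4, were named after their values were seen. Alternatives covered background correction, scaling, filters, probe choice, test, threshold, a block on replicate number, and leaving arrays out in turn.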

Additional observations from a re-analysis of the deposited data

Results flagged for a closer look

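Of 50 groups of 4 arrays examined (member probes, named list genes and the within-array pairs), 3 held an array far from the others, and chance flags about 1 in 20. For the second Abcg8 probe, A_51_P298480, ATH mouse 3 read -0.12 while the other ATH mice read 0.55 to 0.65. For Nr1h2, STD mouse 1 read 1.44 and the others 1.34 to 1.36. For Abca1 minus Abcg1 within an array, STD mouse 1 stood at 3.29 and the others at 3.87 to 3.92.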

How the results depend on the processing

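The number of members called stayed between 4 and 8 under every other setting listed in the methods, except the methods' test, which called 1 at 5% (Gramd1b, adjusted p = 0.0496) and 0 at 1%; 8 had an unadjusted p under 0.05 by it. Gramd1b kept its call at 5% under all of these settings. Apoe was called lower with normexp correction, the percentile over spots, the filter on all 8 arrays and without ATH mouse 2. Leaving out each array gave 5 to 8 members, a median of 1.90 to 2.34 and 394 to 3979 probes called. The members' median moved to 2.40 with spike-in scaling and 2.54 without scaling.

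The number of probes called, 2483 (38.2% of them higher), was less stable. It was 6356 with normexp correction (19.0% higher), 7358 without scaling (94.9% higher), 1084 without the filter on dim probes, 22 with the methods' test (0 at 1%), 164 at 1%, 1269 with the replicate block and 214 without ATH mice 3 and 4. It was 419, 1019, 394 and 502 without STD mouse 1, 2, 3 and 4, and 3979, 643 and 489 without ATH mouse 2, 3 and 4. Genes called in the other pathway lists went from 7 to 11 with spike-in scaling, 17 without scaling, 3 at 1% and 3 with the replicate block (Scd1, Scd2 and Cd5l). With the methods' test 0 were called in each of these lists. Directions turned for values that had not been called: Abcg5 minus Abcg8 was 0.06 with normexp, 0.13 with quantile normalization and 0.05 by the median over probes, Apoe was 0.05 with quantile normalization and 0.01 without scaling, and Lpcat3 was 0.07 with spike-in scaling, 0.21 without scaling and 0.06 without ATH mice 3 and 4. Beyond scaling itself, the cause was not tested.

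Deviations of arrays with the same replicate number correlated at 0.0996, 0.229, 0.181 and 0.175, and 3 of 4 ATH arrays correlated best with their own number. Same-numbered arrays also shared a slide position. Since 1 correlation was not over 0.1, the numbers were not taken to pair the mice. With the replicate block the 6 called members kept their calls, at adjusted p from 0.0187 to 0.0417. Abca1 minus Abcg1 ranged from -1.62 to -1.23 and Abcg5 minus Abcg8 from -0.20 to -0.04 as single arrays were left out. Every member probe was well above background on all 8 arrays, and 4 arrays per diet limit precision.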
